A study of Mus musculus with 18 samples.

Results

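The genes described here encode enzymes and core subunits that act on 2 repressive chromatin marks. These are DNA methylation and the methylation of lysine on histone H3 by the Polycomb repressive complex PRC2. Only for DNA methylation do they include enzymes that remove the mark. The set holds 10 of the 22180 genes tested: Dnmt1, Uhrf1, Dnmt3a, Dnmt3b, Tet1, Tet2, Tet3, Ezh2, Ezh1 and Suz12. They were chosen by symbol, with earlier results of these data known. Each is the brightest of the probe sets annotated to its symbol alone. Each of the 10 genes had 1 such probe set. Their RNA was measured in microglia, the resident macrophages of the brain, from untreated, healthy C57Bl/6 mice kept free of specific pathogens. Cells had been enriched on a Percoll gradient and sorted as CD45 and CD11b positive and Gr1 negative. The 18 arrays form 6 groups of 3: cortex and corpus callosum, the large white matter tract below the cortex, each at postnatal day 3 (P3), postnatal day 7 (P7) and in adult mice whose age the labels do not give. The samples belong to a study of microglia and myelin formation. The labels do not state sex, pooling or whether the arrays of a group come from separate animals, so the p-values measure only the spread between these samples.

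DNA methylation is placed on new CpG sites by DNMT3A and DNMT3B and is copied onto the new strand after replication by DNMT1, which UHRF1 recruits to hemimethylated DNA. The TET dioxygenases oxidise the methyl group, the first step of its removal. PRC2 methylates histone H3 through EZH2 or EZH1, and SUZ12 holds the complex together. In many tissues EZH2 and the maintenance pair DNMT1 and UHRF1 are abundant in dividing cells, whereas EZH1 is the form more often found in resting cells. Microglia divide in the first postnatal weeks and turn over slowly in the adult brain.

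All values are log2 levels from the robust multi-array average (RMA), and a difference of 1 is a doubling. A level is compared here between groups for a given gene, never between genes, because probe sets differ in affinity. Array medians lay between 5.58 and 5.74, and both adult arrays numbered 1 had the lowest mean correlation with the other arrays. The microglial marker list stood high on every array, with a mean over its 11 measured genes between 10.4 and 11.4. A gene is called at an adjusted p under 0.05 in limma over all 22180 genes, and the value after ± is a standard error. Cells of a type and RNA per cell cannot be told apart in bulk samples.

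The plainest pattern lay between P7 and adult. In both regions the maintenance pair Uhrf1 and Dnmt1 and the PRC2 genes Ezh2 and Suz12 fell, and Ezh1 rose. In cortex 5 of the 10 genes were called, against 10.2% of all genes: 4 lower (6.15% of all genes) and 1 higher (4.05%). In corpus callosum the same 5 genes were called in the same directions, against 17.2% of all genes, 10.7% lower and 6.56% higher. The 3 adult and 3 P7 arrays did not overlap for 6 of the 10 genes in cortex (27.3% of all genes). In callosum they did not overlap for 7 of 10 (34.6%). The 10 genes were chosen with earlier results of these data known, so these shares are a description and measure no excess.

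**Figure D1:**
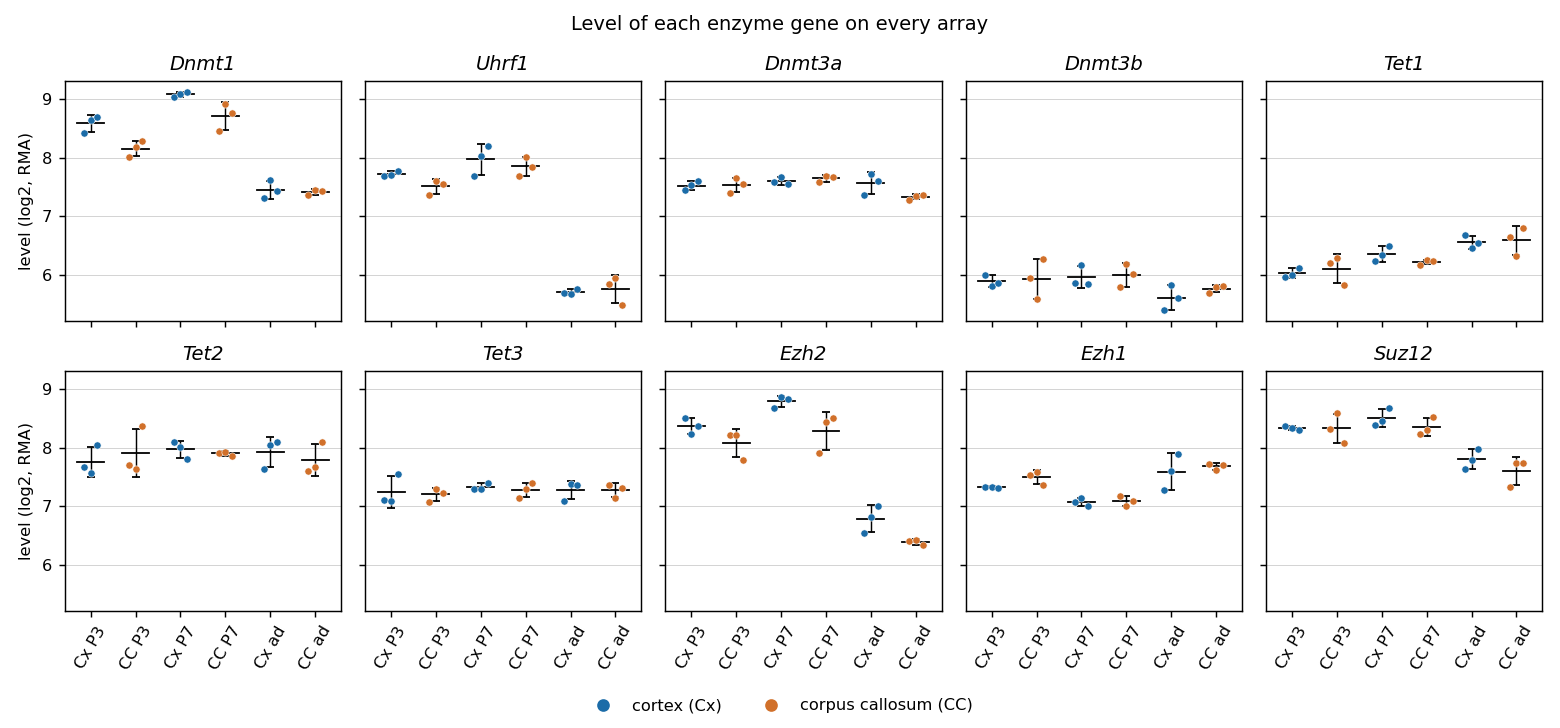
Level of each of the 10 genes on every array (log2, RMA) by group, in cortex (Cx) and corpus callosum (CC) at P3, P7 and in the adult (ad). Points are arrays, horizontal lines are means and bars are standard deviations over 3 arrays. Uhrf1, Dnmt1, Ezh2 and Suz12 are lowest on the adult arrays, Ezh1 is lowest at P7, and Tet2 and Tet3 overlap across all groups.

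Uhrf1, the reader of hemimethylated DNA, had the largest fitted difference of the 10 genes in both regions. Its cortex levels were 7.69, 8.02 and 8.21 at P7 and 5.70, 5.67 and 5.76 in the adult. Its callosum levels were 7.69, 8.02 and 7.84 at P7 and 5.85, 5.95 and 5.49 in the adult. Every adult array thus lay far below every P7 array, and the adult levels lay close to the arrays' medians, where signal is not told apart from background. Uhrf1 fell in cortex (fitted difference −2.26 ± 0.14, or 4.79-fold, adjusted p = 3.45e-09) and in callosum (−2.09 ± 0.14, or 4.25-fold, adjusted p = 1.12e-08), with the size of the fall uncertain for that reason.

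Dnmt1, the maintenance methyltransferase, was high and tightly grouped in P7 cortex, at 9.03, 9.09 and 9.12, and stood at 7.31, 7.61 and 7.43 in adult cortex. In callosum it stood at 8.45, 8.91 and 8.76 at P7 and at 7.37, 7.45 and 7.42 in the adult. The adult arrays of both regions lay within a narrow band below all P7 and P3 arrays. Dnmt1 fell 3.09-fold in cortex (−1.63 ± 0.13, adjusted p = 5.62e-08) and 2.45-fold in callosum (−1.29 ± 0.13, adjusted p = 1.09e-06). The fall was smaller in callosum by 0.33 (95% interval −0.05 to 0.72), and that difference of differences was not called (adjusted p = 0.735).

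The enzymes that set new methylation, in contrast, gave no call. Dnmt3a stood at 7.59, 7.68 and 7.55 in P7 cortex and at 7.36, 7.72 and 7.61 in adult cortex, where the arrays overlapped (−0.04, 95% interval −0.27 to 0.20, adjusted p = 0.908). In callosum its P7 levels were 7.58, 7.68 and 7.67 and its adult levels 7.29, 7.35 and 7.37, without overlap. That difference of −0.31 ± 0.11 missed the threshold (adjusted p = 0.0652). Dnmt3b stayed near the array medians, between 5.41 and 6.27 on all 18 arrays. Its adult arrays lay below the P7 arrays in cortex, at 5.41 to 5.83 against 5.84 to 6.18, with a difference of −0.35 ± 0.16 (adjusted p = 0.229), and overlapped them in callosum (−0.24 ± 0.16, adjusted p = 0.363).

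The TET genes, which encode the demethylating dioxygenases, gave no call either. Tet2 ranged from 7.56 to 8.37 and Tet3 from 7.08 to 7.56 over the 18 arrays, and for both genes each neighbouring pair of groups in the order of means overlapped. The adult minus P7 difference of Tet2 was −0.04 in cortex (95% interval −0.45 to 0.36) and −0.11 in callosum (−0.52 to 0.29). That of Tet3 was −0.05 in cortex (−0.34 to 0.23) and −0.01 in callosum (−0.29 to 0.28). Tet1 was the only TET gene with its highest means in the adult: it stood at 6.18, 6.25 and 6.24 in P7 callosum and at 6.64, 6.32 and 6.80 in adult callosum. Its arrays did not overlap there (0.37 ± 0.14, adjusted p = 0.0831), but they did in cortex, where they ran from 6.23 to 6.50 at P7 and from 6.45 to 6.67 in the adult (0.20 ± 0.14, adjusted p = 0.487).

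Among the PRC2 genes, Ezh2, the main H3 lysine methyltransferase of the complex, fell most. It stood at 8.68, 8.86 and 8.83 in P7 cortex and at 6.55, 6.83 and 7.00 in adult cortex. In callosum it stood at 7.91, 8.44 and 8.51 at P7 and at 6.42, 6.43 and 6.34 in the adult. The highest adult level in each region lay well below the lowest P7 level there. Ezh2 fell 3.99-fold in cortex (−2.0 ± 0.16, adjusted p = 6.76e-08) and 3.71-fold in callosum (−1.89 ± 0.16, adjusted p = 1.45e-07).

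Ezh1, the alternative catalytic subunit, moved the other way. Its cortex levels were 7.07, 7.15 and 7.01 at P7 and 7.28, 7.61 and 7.90 in the adult. Its callosum levels were 7.18, 7.01 and 7.09 at P7 and 7.73, 7.62 and 7.70 in the adult. The groups were separate in both regions, although the adult cortex arrays were the most spread. Ezh1 rose 1.43-fold in cortex (0.52 ± 0.13, adjusted p = 0.0132) and 1.5-fold in callosum (0.59 ± 0.13, adjusted p = 0.00343). The cortex call rests on single arrays: the difference was 0.37 without adult cortex replicate 3 (adjusted p = 0.0940) and 0.49 without P7 cortex replicate 3 (adjusted p = 0.0638). It was also not called when only the P7 and adult cortex arrays were fitted (adjusted p = 0.0850).

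Suz12, the scaffold subunit shared by both forms of the complex, fell by less than Ezh2. It stood at 8.40, 8.46 and 8.68 in P7 cortex and at 7.64, 7.80 and 7.98 in adult cortex. In callosum it stood at 8.23, 8.30 and 8.52 at P7 and at 7.34, 7.74 and 7.75 in the adult. The groups did not overlap, and the fall was 1.63-fold in cortex (−0.70 ± 0.15, adjusted p = 0.00358) and 1.67-fold in callosum (−0.74 ± 0.15, adjusted p = 0.00146).

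**Figure D2:**
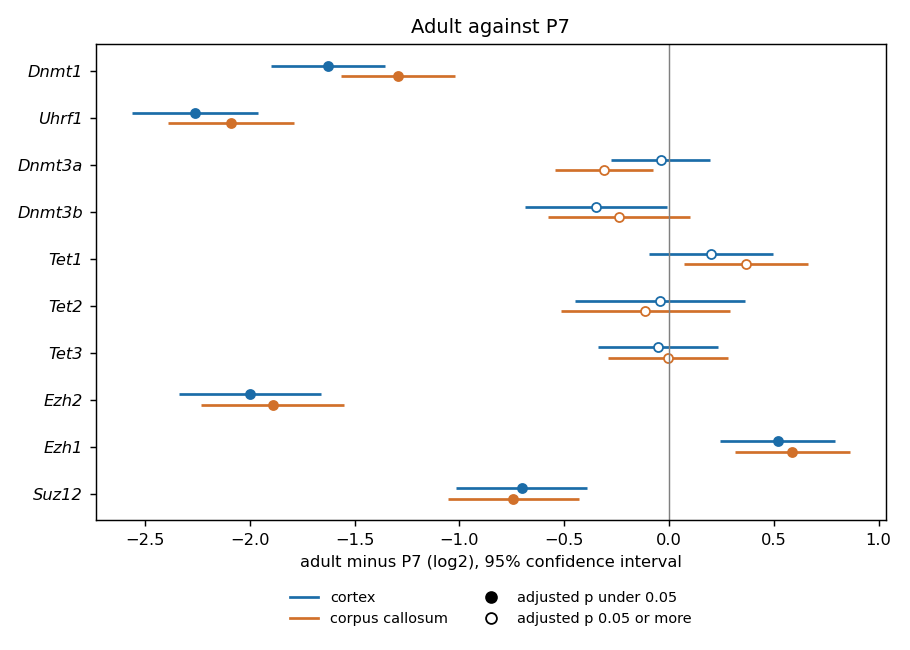
Adult minus P7 difference (log2) of the 10 genes in cortex and corpus callosum, with 95% confidence intervals from limma; filled points have an adjusted p under 0.05. Uhrf1, Ezh2, Dnmt1 and Suz12 lie left of 0 and Ezh1 right of 0 in both regions, and the intervals of Tet2 and Tet3 include 0.

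Promoter sequence was examined because 4 of the 10 genes fell together. RefSeq windows of 300 bases, from 250 bases before to 50 after an annotated start (assembly GRCm38.p6), gave 15 windows for the 10 genes. The letters TTTNNCGC, a looser form of the textbook E2F site TTTSSCGC (S is C or G), were searched on both strands. They stood in at least 1 window of each of the 4 genes that fell, in 5 of their 7 windows, and in 0 of the 8 windows of the other 6 genes. Over all 32851 RefSeq windows, 5.17% held them, and 9.1% of the 3837 windows with at least 30 CpG did. Taken by gene, 5.93% of genes held them in at least 1 window. The letters CCAAT, the core of the NF-Y site, stood in 6 of those 7 windows and in 1 of the other 8 (Tet3). Of all windows 37.4% held CCAAT, and 25.9% of those with at least 30 CpG did. These are matches of letters, not shown sites, and the set of 4 genes was defined by the measured fall.

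Stretches that hold these letters are printed 5′ to 3′ on the gene's strand for the 4 genes that fell. That of Ezh1, which rose, is added for contrast. Each stretch is from the gene's window richest in CpG. Capitals mark matches of either motif on either strand, so that ATTGG is the reverse complement of CCAAT.
Uhrf1 (plus strand, chr17:56304063-56304312, ending at the base before the start): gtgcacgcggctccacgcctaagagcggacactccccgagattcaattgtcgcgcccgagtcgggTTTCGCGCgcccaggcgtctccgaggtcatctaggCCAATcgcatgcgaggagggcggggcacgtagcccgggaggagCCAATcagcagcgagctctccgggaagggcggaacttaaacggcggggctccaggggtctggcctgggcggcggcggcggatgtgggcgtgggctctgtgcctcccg
Dnmt1 (minus strand, chr9:20952814-20952873, the first 60 bases of the window richest in CpG of its 3): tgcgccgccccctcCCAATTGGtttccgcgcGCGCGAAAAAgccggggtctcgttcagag
Ezh2 (minus strand, chr6:47595001-47595280, ending 30 bases past the start): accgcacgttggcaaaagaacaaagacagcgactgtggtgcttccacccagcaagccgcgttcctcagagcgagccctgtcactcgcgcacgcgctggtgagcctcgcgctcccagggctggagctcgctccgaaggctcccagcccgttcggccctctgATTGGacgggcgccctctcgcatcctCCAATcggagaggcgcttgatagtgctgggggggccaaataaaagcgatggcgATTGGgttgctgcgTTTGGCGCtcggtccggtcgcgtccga
Suz12 (plus strand, chr11:79992856-79993105, ending at the base before the start): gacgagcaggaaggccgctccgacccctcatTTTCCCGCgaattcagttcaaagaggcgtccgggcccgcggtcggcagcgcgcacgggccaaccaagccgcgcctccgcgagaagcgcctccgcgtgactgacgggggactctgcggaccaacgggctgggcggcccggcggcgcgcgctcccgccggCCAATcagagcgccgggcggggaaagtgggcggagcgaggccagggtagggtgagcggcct
Ezh1 (minus strand, chr11:101226464-101226713, ending at the base before the start): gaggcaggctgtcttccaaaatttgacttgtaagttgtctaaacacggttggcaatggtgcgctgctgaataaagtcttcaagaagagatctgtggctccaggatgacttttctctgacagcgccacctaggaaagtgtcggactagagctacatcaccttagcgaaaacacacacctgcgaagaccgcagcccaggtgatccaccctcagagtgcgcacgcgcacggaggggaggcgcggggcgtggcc
In the Dnmt1 stretch a pair of E2F matches overlap and a pair of CCAAT matches overlap. Of the E2F pair, GCGCGAAA fits the stricter form TTTSSCGC on the other strand and GCGAAAAA does not. A further E2F match, TTTGGCGC, begins at base 34 past the start, outside the stretch. The Ezh2 match TTTGGCGC begins at base 4 past the start, the Uhrf1 match TTTCGCGC at base −185 and the Suz12 match TTTCCCGC at base −219, counted from the start. All 10 genes had at least 17 CpG in their window richest in CpG, and Tet2 had the most, 57. The median over all windows, taken without such a choice, was 7. The members' other windows held from 2 CpG (Dnmt1) to 46 (Dnmt3a). Ezh1 had 23 CpG in its single window and neither motif.

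Genes of the S phase and of mitosis changed in the same comparison. Of 26 measured proliferation genes, 25 fell in cortex and 24 in callosum and 0 rose, with a median difference of −2.03 and −1.67 against 0.03 and 0.05 over all genes. Rrm2, a subunit of ribonucleotide reductase, differed by −5.31 in cortex and −5.22 in callosum, the topoisomerase gene Top2a by −4.99 and −4.45, Mki67, a marker of cycling cells, by −4.61 and −4.0, and the replication clamp Pcna by −1.0 and −0.94. In cortex the fitted falls of Uhrf1 and Ezh2 lay near the median of the list, and in callosum they were larger than it (−2.09 and −1.89). Those of Dnmt1 and Suz12 were smaller in both regions. The mean over the 26 genes ran from 8.05 to 8.28 on the P7 cortex arrays and stood at 7.59, 8.03 and 8.06 on the P7 callosum arrays. It ran from 5.67 to 5.78 on the 6 adult arrays, close to the medians of those arrays (5.65 to 5.74). The size of the fall of the list is therefore uncertain too. How far the falls of the chromatin genes follow the share of dividing cells was not tested.

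The adult arrays formed a cluster of their own on this proliferation mean. Correlations are therefore given as descriptions over the 12 P3 and P7 arrays. These share a strain and a sort but form 4 groups, and age coincides with the label prefix. The values thus include the steps between regions and between ages. Over these 12 arrays Pearson's r with the proliferation mean was 0.91 for Ezh2, 0.84 for Dnmt1, 0.80 for Uhrf1, 0.55 for Suz12 and −0.62 for Ezh1. It was 0.43 for Tet1, 0.40 for Tet3, 0.31 for Dnmt3a, 0.25 for Dnmt3b and −0.03 for Tet2. With the group means removed over all 18 arrays it was 0.60 for Ezh2, 0.58 for Uhrf1, 0.50 for Dnmt1, 0.31 for Suz12 and −0.32 for Ezh1, and 0.33 for Dnmt3b, 0.16 for Dnmt3a, 0.12 for Tet3, 0.10 for Tet1 and −0.21 for Tet2. P7 callosum replicate 1, the P7 array with the lowest proliferation mean, also had the lowest Ezh2 and Dnmt1 levels of the 6 P7 arrays. The same array had the lowest microglial mean of the P7 arrays (10.5) and the highest mean over 10 neutrophil markers (5.65, against 4.79 to 4.95 on the other 5). P3 callosum replicate 3, with the lowest Ezh2 level of the P3 arrays, had the highest neutrophil mean (6.23) and the highest mean over 8 monocyte markers (6.83) of those arrays. The part of these cells in the levels was not tested.

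**Figure D3:**
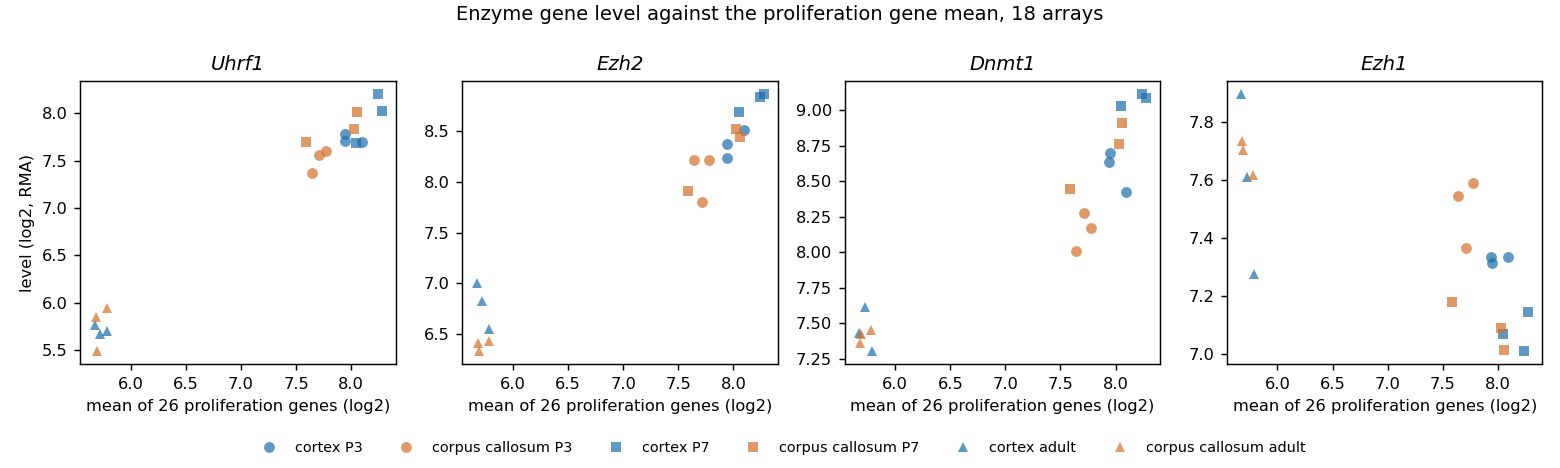
Levels of Uhrf1, Ezh2, Dnmt1 and Ezh1 (log2, RMA) against the mean level of 26 proliferation genes (log2) on each of the 18 arrays, coloured by region and shaped by age. The 6 adult arrays sit apart at a proliferation mean between 5.67 and 5.78, with the lowest Uhrf1, Ezh2 and Dnmt1 levels; among the other 12 arrays Ezh2 and Dnmt1 are higher where the mean is higher.

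Likeness of profile was measured by Pearson's r over all 18 arrays. The members themselves and genes with clone, locus, predicted or small RNA names were left out. The most alike genes are thus those among the remaining genes. For Ezh2 the most alike genes were Kif22, a mitotic kinesin (0.98), Smc2, a condensin subunit, and Fbxo5, an inhibitor of the anaphase-promoting complex. For Uhrf1 they were the linker histone H1f5 (0.99), the kinetochore gene Nuf2 and Anp32b, and for Dnmt1 the lysosomal sulfatase Arsb (0.98), Cenpf and Kif14, both genes of mitosis. Suz12 was most like Atp13a3 (0.95), the nuclear export receptor Xpo1 and Atad5. Ezh1 was most like Nisch (0.91), Dalrd3 and the survival gene Mcl1. For Tet1 the nearest gene was Unc13d (0.89), for Tet2 Tbc1d14 (0.86), for Dnmt3a Cbx1, which encodes a heterochromatin protein (0.85), for Tet3 Trim41 (0.82) and for Dnmt3b Helq (0.82). These values include the step between the adult and the younger arrays.

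The wider DNA methylation machinery changed in both directions. Of 26 measured genes, 7 fell and 5 rose from P7 to adult in cortex, and 9 fell and 3 rose in callosum, with medians of −0.17 and −0.09. Over all genes, 6.15% fell and 4.05% rose in cortex, and 10.7% fell and 6.56% rose in callosum. Pcna, counted among the falls in both regions, is also on the proliferation list. Hells, a chromatin remodeller needed for DNA methylation at repeats, fell by 3.25 in cortex and likewise in callosum (−3.15). Cdca7l (−1.62) and the glycosylase gene Mbd4 (−1.07) followed in cortex. In callosum the next were Ahcy, whose enzyme clears S-adenosylhomocysteine (−1.58), and the isocitrate dehydrogenase gene Idh1 (−1.31). Zbtb4, which encodes a reader of methylated DNA, rose by 0.85 and 0.60, Gadd45g by 0.73 and 0.59 and Cxxc5, of the CXXC zinc-finger family, by 0.65 and 0.81.

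Of the 13 other PRC2 components and H3K27 demethylases, 1 fell and 1 rose in cortex, and 3 fell and 1 rose in callosum. Their medians were −0.05 and 0.06. The shares over all genes were 6.15% lower and 4.05% higher in cortex, and 10.7% and 6.56% in callosum. The histone-binding subunit gene Rbbp7 fell in both regions (−0.86 in each), and its relative Rbbp4 (−0.48) and Lcorl (−0.41) fell in callosum. Phf1, which encodes a Polycomb-like accessory subunit, rose by 0.71 and 0.48. Eed, the third core subunit gene, gave −0.05 (adjusted p = 0.913) and 0.14 (adjusted p = 0.556), so the core genes did not all pass the test. The demethylase gene Kdm6b gave 0.55 (adjusted p = 0.197) and 0.49 (adjusted p = 0.186). Eed and Kdm6b were singled out after their values were seen.

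PRC1 acts beside PRC2 by ubiquitinating histone H2A. Of 25 measured genes of PRC1 components, a list that also holds genes of the H2A deubiquitinase, 3 fell and 3 rose in cortex, and 4 fell and 2 rose in callosum, with medians of 0.04 and 0.11. The ring-finger genes Pcgf2 and Pcgf6 fell in cortex (−0.98 and −0.90) and in callosum (−0.72 and −0.64). E2f6, the gene of a repressive E2F found in a PRC1 variant, fell too (−0.86 and −0.83). Bmi1, also a ring-finger subunit gene, rose by 0.66 and 0.55, Cbx7 by 0.50 and 0.45, and Phc2 by 0.53 in cortex. Of 20 textbook Polycomb target genes, among them Hox, Pax and Gata genes, 1 fell and 0 rose in each region: the cell cycle inhibitor gene Cdkn2b, with −0.67 in cortex (adjusted p = 0.00272) and −0.47 in callosum (adjusted p = 0.0237). The medians of that list were 0.04 and 0.01. Beside the counts of both lists, 6.15% of all genes fell and 4.05% rose in cortex, and 10.7% and 6.56% in callosum.

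Markers of other cells moved in this comparison too. Called over all genes were 6.15% lower and 4.05% higher in cortex, and 10.7% and 6.56% in callosum. Of 9 measured genes of border-associated macrophages, which lie in the meninges and around vessels and pass the same gate, 4 fell in cortex and 6 in callosum, among them Mrc1 (−4.23 and −4.44). The mean of that list ran from 6.77 to 7.15 in P7 cortex and from 5.71 to 5.83 in adult cortex, and from 7.07 to 7.28 in P7 callosum and from 5.83 to 5.89 in adult callosum. Of 13 neuron markers 4 fell in cortex and 0 in callosum, and of 8 monocyte markers 2 fell and 1 rose in each region. Of 8 astrocyte markers 2 rose in cortex and 1 in callosum, of 10 endothelial and mural markers 1 rose in cortex, and of 8 oligodendrocyte markers 1 fell in callosum. The 6 oligodendrocyte precursor, 10 neutrophil and 7 lymphocyte markers and the 1 measured erythroid marker gave no call. Of 11 microglial markers 5 rose in cortex and 8 in callosum, and none fell. P2ry12, a receptor gene of resting microglia, differed by 0.15 in cortex (adjusted p = 0.564) and rose by 0.47 in callosum (adjusted p = 0.00842). Their part in the results for the chromatin genes was not tested.

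Between the regions none of the 10 genes was called at any age, where 0.505% of all genes were called at P3, 0.451% at P7 and 0.00451% in the adult. At an unadjusted p under 0.05 there were 1, 2 and 1 of the 10 genes, beside 2848, 1526 and 1888 of all genes. The arrays of the regions did not overlap for 4 of the 10 genes at P3 (15.8% of all genes), 2 at P7 (16.7%) and 1 in the adult (12.8%). Ezh2 was among them at each age. It stood at 8.50, 8.23 and 8.37 in P3 cortex against 8.21, 8.21 and 7.80 in P3 callosum, and its P7 and adult levels are given above. Its callosum minus cortex difference was −0.29 ± 0.16 at P3 (adjusted p = 0.473), −0.50 ± 0.16 at P7 (adjusted p = 0.335) and −0.40 ± 0.16 in the adult (adjusted p = 0.535). Without P7 callosum replicate 1 the P7 difference was −0.31, and without P3 callosum replicate 3 the P3 difference was −0.16.

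Dnmt1 separated the regions at both young ages and overlapped in the adult. Its P3 levels were 8.42, 8.64 and 8.70 in cortex and 8.01, 8.18 and 8.28 in callosum, so that the regions were separate at P3 as they were at P7. The difference was −0.43 ± 0.13 at P3 (adjusted p = 0.148), −0.37 ± 0.13 at P7 (adjusted p = 0.427) and −0.04 ± 0.13 in the adult (adjusted p = 0.964). Without P7 callosum replicate 1 the P7 difference was −0.24. The other separations were at P3: Uhrf1 stood at 7.69, 7.71 and 7.78 in cortex and 7.37, 7.60 and 7.56 in callosum (−0.22 ± 0.14, adjusted p = 0.571), and Ezh1 at 7.34, 7.34 and 7.32 in cortex and 7.54, 7.59 and 7.37 in callosum (0.17 ± 0.13, adjusted p = 0.636). Suz12, Dnmt3a, Dnmt3b and the TET genes overlapped between the regions at all ages.

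**Figure D4:**
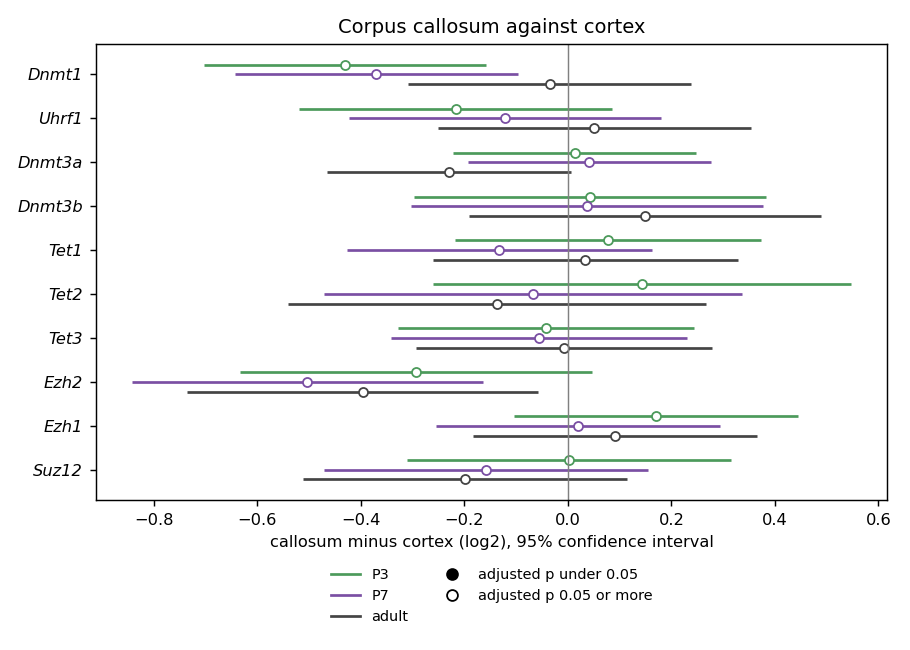
Corpus callosum minus cortex difference (log2) of the 10 genes at P3, P7 and in the adult, with 95% confidence intervals from limma. No adjusted p is under 0.05, so all points are open; Ezh2 lies left of 0 at all 3 ages, between −0.29 and −0.50.

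The 26 proliferation genes had a median regional difference of −0.33 at P3, −0.32 at P7 and −0.04 in the adult, with 0 called at each age. At P3 the regions also differed in markers of other cells: 2 of 13 neuron markers were lower in callosum (Meg3 with −1.32 and Gap43 with −1.27) and 2 of 9 border-associated macrophage markers were higher (Folr2 with 1.63 and Ms4a7 with 1.53), as was 1 of 8 monocyte markers (Lyz2 with 0.90). At P7 1 border-associated macrophage marker was higher in callosum (Folr2 with 1.95), and in the adult no marker of another cell was called. The part of these cells in the regional values was not tested. A change of the regional difference with age was called for none of the 10 genes in limma: 0% of all genes were called for P7 minus P3 (1260 had an unadjusted p under 0.05) and 0.203% for adult minus P7. Of the 10 genes 0 had an unadjusted p under 0.05 in either.

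From P3 to P7 none of the 10 genes was called, where 0.884% of all genes were called in cortex and 0.739% in callosum. At an unadjusted p under 0.05 there were 3 of the 10 genes in each region, beside 2892 and 3149 of all genes. The P3 and P7 arrays did not overlap for 5 of the 10 genes in cortex (21.3% of all genes) and 3 in callosum (18.8%). The P3 arrays carry another label prefix than the P7 and adult arrays, so age and array set cannot be told apart here. Dnmt1 came closest to the threshold and was higher on every P7 array than on any P3 array of its region, by 0.49 ± 0.13 in cortex (adjusted p = 0.0855) and 0.55 ± 0.13 in callosum (adjusted p = 0.0543). In callosum it passed in 6 of 12 alternative settings, with an adjusted p between 0.0254 and 0.241.

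Ezh2 was higher at P7 than at P3 by 0.42 ± 0.16 in cortex (adjusted p = 0.261), where its arrays were separate, and by 0.21 ± 0.16 in callosum (adjusted p = 0.601), where they overlapped. Ezh1 was lower on every P7 array than on any P3 array of its region, with −0.25 ± 0.13 in cortex (adjusted p = 0.434) and −0.41 ± 0.13 in callosum (adjusted p = 0.154). Its lowest levels of all 6 groups were thus those at P7. Uhrf1 separated the ages in callosum (0.34 ± 0.14, adjusted p = 0.287), and Tet1 (0.33 ± 0.14, adjusted p = 0.323) and Suz12 (0.18 ± 0.15, adjusted p = 0.671) did in cortex. Tet1 stood at 5.97, 6.00 and 6.12 in P3 cortex, below its 6.23 to 6.50 at P7. Of the 26 proliferation genes, the replication licensing gene Cdc6 was called in cortex (0.70, adjusted p = 0.0484) and 0 were in callosum. Markers of other cells fell from P3 to P7: in cortex 4 of 13 neuron markers, 1 of 6 oligodendrocyte precursor markers (Ptprz1 with −2.92) and 1 of 8 monocyte markers, and in callosum 2 neuron markers and Ptprz1 (−2.56). Their part in these values was not tested.

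Ordered by mean level, Dnmt1, Uhrf1, Ezh2 and Suz12 were highest in P7 cortex and had both adult groups last. For Dnmt1 the steps from P7 cortex to P7 callosum, from P3 cortex to P3 callosum and from P3 callosum to the adult were free of overlap, whereas P7 callosum overlapped P3 cortex. Ezh2 was the only one of these 4 with separate adult groups, adult callosum being last. For Suz12 each neighbouring pair among the 4 young groups overlapped, although P7 cortex and P3 cortex were separate. P3 cortex, the lowest of the 4, did not overlap adult cortex. Ezh1 ran in another order, with the adult groups first, then P3 callosum and P3 cortex, and both P7 groups last. Within these 10 genes, Tet1, Tet2 and Tet3 had no step without overlap, and Dnmt3a had its single one above adult callosum.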

How the data were processed

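The deposited values are log2 expression levels, 1 per probe set and array, made by the authors with RMA, per the submitters' processing notes. The sources used here do not state its version and settings, the base of the logarithm (taken as 2) or the array's build. RMA makes the distributions of arrays alike, so a change of total RNA cannot be seen. RNA had been amplified and biotin-labelled before hybridisation, per the labels' protocols.

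Of 41345 probe sets, 23521 had 1 gene symbol in GEO's platform annotation, 1814 several and 16010 none. The brightest probe set per symbol was kept, and 21994 of the 22180 genes were matched to the RefSeq gene table with 0 symbols changed. All 18 arrays were used. They entered 1 linear model with a mean per group (limma 3.58.1, R 4.3.3; lmFit, contrasts.fit, eBayes without trend, 12 residual degrees of freedom). The 9 comparisons were the regional difference at P3, P7 and in the adult, the steps from P3 to P7 and from P7 to adult within a region, and the changes of the regional difference over those steps. Tests were two-sided, with Benjamini-Hochberg adjustment over all genes; the fit was tested on simulated data. Arrays limit the precision by their number, 3 a group.

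The members and all gene lists were chosen with earlier results of these data known. Named beside the members were up to 3 called genes per direction and comparison from the methylation, PRC2 and PRC1 lists, up to 2 from the proliferation and Polycomb target lists, the genes most correlated with each member, and Mki67, Top2a, Pcna and P2ry12. Markers of other cells were taken from 10 lists. Alternatives were another probe set summary, variance trend, quantile normalization, a filter on low genes, fewer groups in the fit, a replicate block, an adjusted p under 0.01, and leaving out arrays.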

Additional observations from a re-analysis of the deposited data

How the results depend on the processing

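The calls of Uhrf1, Dnmt1, Ezh2 and Suz12 between P7 and adult kept their direction and stayed under the threshold in 13 of 13 alternatives in each region, with adjusted p up to 0.0292 (Suz12, cortex). Ezh1 did so in 13 of 13 in callosum and in 10 of 13 in cortex. Of these settings, only quantile normalization and leaving out arrays could change a member's difference, so the others test the call and not the direction. The threshold of 0.01, not among the 13, left 4 members called in cortex, without Ezh1, and 5 in callosum. The count of called members from P3 to P7 moved from 0 to 1 in callosum, always Dnmt1, with an intensity trend in eBayes (adjusted p = 0.0342), after quantile normalization (0.0384) and with genes below the median left out (0.0272). Leaving out each array in turn gave 0 to 1 there: Dnmt1 was called without P7 callosum replicate 1 (0.0393) and without P3 callosum replicate 3 (0.0360). With the replicate block the count was 1 in callosum (Dnmt1, 0.0254) and 1 in cortex (Dnmt1, 0.0379), and Dnmt3a was called between P7 and adult in callosum (0.0437). Same-numbered arrays of the regions correlated at 0.016 to 0.30 in their deviations from the group means, and those of P7 and adult at 0.042 to 0.24. All of these were positive, not every pair was over 0.1, and arrays of different numbers were not compared. The labels do not say what a number stands for, so whether the numbers pair the samples is not known. From P7 to adult in callosum, Dnmt3a (0.0337) and Tet1 (0.0442) were also called with genes below the median left out, and Tet1 without adult callosum replicate 2 (0.0254). No called difference changed its sign in these settings, and the causes of these moves were not tested. The number of all genes called from P3 to P7 in callosum was 164; it was 297 with the trend, 299 with genes below the median left out, 5 with only the compared groups and 8 at an adjusted p under 0.01, and ran from 13 (without P7 callosum replicate 3) to 506 (without P3 callosum replicate 3) over single arrays left out. Levels near the array medians, those of Dnmt3b, adult Uhrf1 and the adult proliferation mean, are limited by signal over background, which the files do not give.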

Other observations

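Because Ezh2 lay lower in callosum at each age, the regional difference was averaged over the 3 ages in the same fit, a contrast chosen after seeing the data. Ezh2 gave −0.40 ± 0.09 (unadjusted p = 0.000475, adjusted p = 0.0633 in limma) and Dnmt1 −0.28 ± 0.07 (adjusted p = 0.122). None of the 10 genes was called, beside 0.618% of all genes (137). Leaving out single arrays moved the adjusted p of Ezh2 between 0.0384 (without adult cortex replicate 1) and 0.141 (without P7 cortex replicate 2), and it was also under the threshold without P7 callosum replicate 3 (0.0441). Ezh1 gave 0.09 ± 0.08 (adjusted p = 0.748) and Uhrf1 −0.10 ± 0.08 (adjusted p = 0.777).

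With group means removed over the 18 arrays, the highest Pearson's r among the 45 pairs of the 10 genes were 0.70 for Dnmt1 and Dnmt3a, 0.61 for Dnmt3a and Tet3, 0.60 for Ezh2 and Suz12, 0.59 for Dnmt3b and Tet2 and 0.57 for Dnmt1 and Tet3, given as descriptions of these arrays.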
